A study of Homo sapiens with 2 samples.

Results

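The RB pocket proteins and the E2F transcription factors were examined as a set of 10 of the 30982 gene names on the arrays, RB1, RBL1, RBL2 and E2F1 to E2F7, in the retinoblastoma cell line Y79. The members were taken by name: every transcript probe listed under one of these gene symbols was kept, which gave 18 of the 41000 transcript probes on the arrays, printed at 36 of the 43376 transcript spots. All 18 accessions were found under the same symbol in the RefSeq gene table. Expression was measured on 2 one-colour oligonucleotide arrays, 1 per condition. The untreated array held Cy3-labelled RNA from Y79 cells that received no siRNA, and the siRNA-treated array held RNA from Y79 cells collected 48 h after siRNA against Ep-CAM, the epithelial cell adhesion molecule, listed on the arrays under its older symbol TACSTD1. Y79 is an established human retinoblastoma line that grows in suspension and is known for its loss of functional RB protein. According to the methods of the study both cultures were also exposed to 5′-azacytidine (AZC), a DNA demethylating agent, which the sample labels do not give. The reference was untreated cells, so exposure to siRNA and transfection reagent as such cannot be told apart from the loss of Ep-CAM, and 1 cell line was used.

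Pocket proteins are named after the groove that holds their partners. RB1 mainly binds the activator factors E2F1, E2F2 and E2F3 and masks the stretch at their carboxyl end that activates transcription. RBL1 (p107) and RBL2 (p130) mainly bind E2F4 and E2F5 and recruit corepressors. Cyclin-dependent kinases phosphorylate the pocket proteins, the E2F factors are released, and genes for DNA replication are transcribed. E2F6 and E2F7 repress without a pocket protein. Loss of both RB1 alleles starts most retinoblastomas, so the state of the other family members in such cells is a recurrent question in this tumour.

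The sequences that the measured values rest on are the array probes, each 60 bases long, with positions on human genome build hg17 as the files give them. The probes that carry the pocket protein readings and the brighter readings of E2F2 and E2F4 are shown, so that the paralogs can be told apart by their letters. The measured RB1 probe (probe 2, chr13:47832236-47834982, plus strand) and the brighter E2F4 probe (probe 1, chr16:65789011-65789290, plus strand) are spread over 2747 and 280 bases of the genome, so both join exons of a spliced transcript. The measured probes of RBL1 (probe 1, chr20:35060611-35060670, minus strand) and RBL2 (probe 1, chr16:52081616-52081675, plus strand) lie on a stretch that the paralogs share, and identical bases are in capitals in these sequences. They match at 33 of 57 aligned bases (57.9%), so each probe differs from the other gene's stretch at many places. The brighter E2F2 probe (probe 1, chr1:23581681-23581740, minus strand) is open in 1 reading frame.
RB1 probe 2: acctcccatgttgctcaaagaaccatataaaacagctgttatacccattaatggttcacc
RBL1 probe 1: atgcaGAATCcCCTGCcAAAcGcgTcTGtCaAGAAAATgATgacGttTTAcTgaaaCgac
RBL2 probe 1: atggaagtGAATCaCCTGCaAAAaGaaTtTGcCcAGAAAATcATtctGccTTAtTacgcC
E2F2 probe 1: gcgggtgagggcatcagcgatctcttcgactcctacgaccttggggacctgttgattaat
E2F4 probe 1: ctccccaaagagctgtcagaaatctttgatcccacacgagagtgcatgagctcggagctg

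Across all spots, 70.4% of the untreated and 68.0% of the siRNA-treated transcript spots were well above background, a flag the scanner software sets where a spot stands clearly over its local background. The processed signal is a spot's brightness in arbitrary units after subtraction of the background, and signals were expressed relative to the 50th percentile of their own array (48.9 untreated, 50.0 siRNA-treated) before ratios were taken. A probe with the flag on at least 50% of its spots on both arrays, and not saturated, counts as measured, which held for 26976 probes. With 1 array per condition the ratios could not be tested against a spread between cultures. The spread that could be measured was technical: over 179 probes printed many times and measured on both arrays, the median SD of the log2 ratio was 0.14, and over the 68 of them with an untreated signal of 25 to 100 it was 0.20. Precision was limited by the number of arrays. Log2 ratios in the corner formed by rows 355 to 532 and columns 43 to 85 were more scattered (SD 0.51) than elsewhere (SD 0.29), and whether a member lies there is given with its value. Of the 8 photoreceptor and retinoblastoma markers, CRX, OTX2 and ARR3 were measured on both arrays, THRB was well above background on the untreated array only, NRL, RCVRN and PDE6H were on neither, and for GNAT2 no probe was found. Of 4 listed markers each, 3 were measured for Mueller glia, 4 for epithelial cells, 3 for fibroblasts and 4 for blood, so that a signal above background did not by itself mark a cell type, and of those measured markers HBB, a haemoglobin gene, was the only one past a 2-fold change (330.6 untreated, 1235 siRNA-treated, log2 ratio 1.87 over 8 spots). The part of HBB or of other cells in any result was not tested.

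The single Ep-CAM probe read 15.6 units untreated and 12.0 units after siRNA and stood well above background on neither array. The arrays therefore gave no check of the siRNA label by the transcript it targets.

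Of the 10 genes, 9 had at least 1 measured probe, and 13 of the 18 probes were measured. No member probe was higher by a log2 ratio of 1 or more, beside 0.793% of all measured probes, and none was lower by 1 or more, beside 0.801% of all. At a smaller change of 0.5 on the log2 scale, 0 of 13 member probes were higher (3.92% of all measured probes) and 4 of 13 were lower (6.7% of all), these being RBL2 probe 1, E2F2 probe 1, E2F3 and E2F4 probe 2. Of these 4, RBL2 probe 1 and E2F2 probe 1 lie in the corner. There 2 of 3 member probes were that low, beside 12.6% of all measured probes in it. Outside the corner 2 of 10 were, beside 5.55% of all. With the authors' processed values the 4 probes were at -0.03, -0.46, -0.53 and -0.41 in the order named, so only E2F3 stayed below -0.5. The median log2 ratio of the 13 probes was -0.19 (range -0.88 to 0.35), and that of all measured probes was -0.03. Outside the corner the 10 member probes had a median of -0.08, beside -0.02 for all probes there. The member median was -0.05 with the authors' processed values, which keep the background in the signal, -0.36 with a normexp background model, and -0.05 with the same model fitted without the 1 spot on the siRNA-treated array that was dimmer than its local background. The normexp model with that spot moved the median of all measured probes to -0.20, and without it this median was -0.02.

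**Figure D1:**
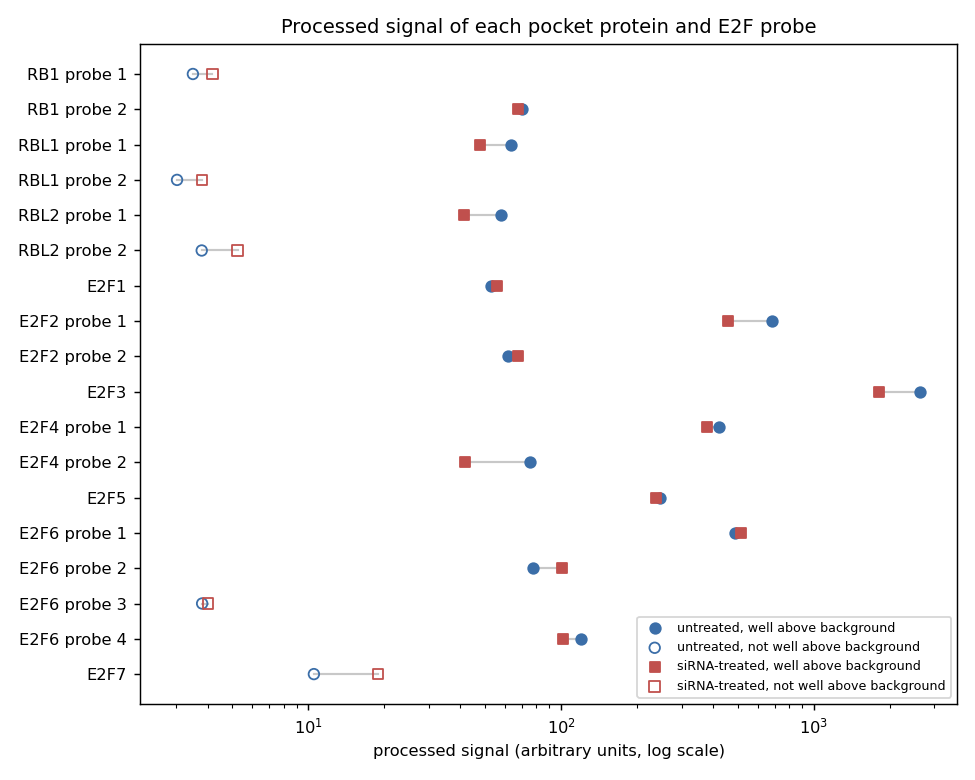
Processed signal (arbitrary units, log scale) of the 18 probes on the untreated array (circles) and the siRNA-treated array (squares), as the mean over a probe's spots, with open symbols where the probe was not well above background. The 5 probes with open symbols lie at 18.9 units or less on both arrays, and probe brightness depends on the probe as well as on its transcript, so rows are to be read across and not against each other.

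RB1, the founding pocket protein, was read by probes at opposite ends of a stretch of 121669 bases, and only one of them gave a signal. RB1 probe 2, inside the gene, read 70.1 units untreated and 67.8 units after siRNA and was well above background on both arrays. Its log2 ratio was -0.08 with a scanner error of 0.23, the SE that the software's error model gives for a single spot on each array and that leaves out variation between cultures. A signal at this RB1 junction was therefore detected in both cultures, and the signals differ by less than the scanner error. RB1 probe 1 (chr13:47953846-47953905, plus strand) was printed at 10 spots, of which 1 was marked as an outlier and left out. Its 9 remaining spots had signals of 3.16 to 4.03 in untreated and 3.63 to 4.92 in siRNA-treated cells, none well above background. All 9 values on each array were surrogates, which the software enters in place of a signal below its noise limit, so that their common shift upward is no measurement. RB1 was therefore read from a single spot on each array.

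RBL1 and RBL2, the pocket proteins still intact in most retinoblastomas, each had 1 measured probe, and both probes lie in the corner. RBL1 probe 1 read 63.2 units untreated and 48.0 units after siRNA, with a log2 ratio of -0.43 and a scanner error of 0.27. The 65 measured spots around it, within 11 rows by 11 columns, had a median log2 ratio of -0.50, and after its subtraction the value was 0.07. The lower signal of RBL1 thus stood among neighbouring spots that were as low. RBL2 probe 1 read 57.9 units untreated and 41.5 units after siRNA, with a log2 ratio of -0.52 and a scanner error of 0.29. Its 55 measured neighbours were shifted the other way, with a median of 0.40, and the value after subtraction was -0.92. With the authors' processed values RBL1 was at -0.15 and RBL2 at -0.03, and with the normexp model without the dim spot at -0.17 and -0.02 (-0.10 and 0.04 with it). Each paralog was thus read from 1 spot in the corner, and the part of position in either value was not tested. The other probes, RBL1 probe 2 (chr20:35069243-35069302, minus strand) and RBL2 probe 2 (chr16:52082347-52082406, plus strand), were well above background on neither array, with signals of 3.03 and 3.81 for RBL1 and 3.79 and 5.26 for RBL2. They give no second reading of either gene.

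**Figure D2:**
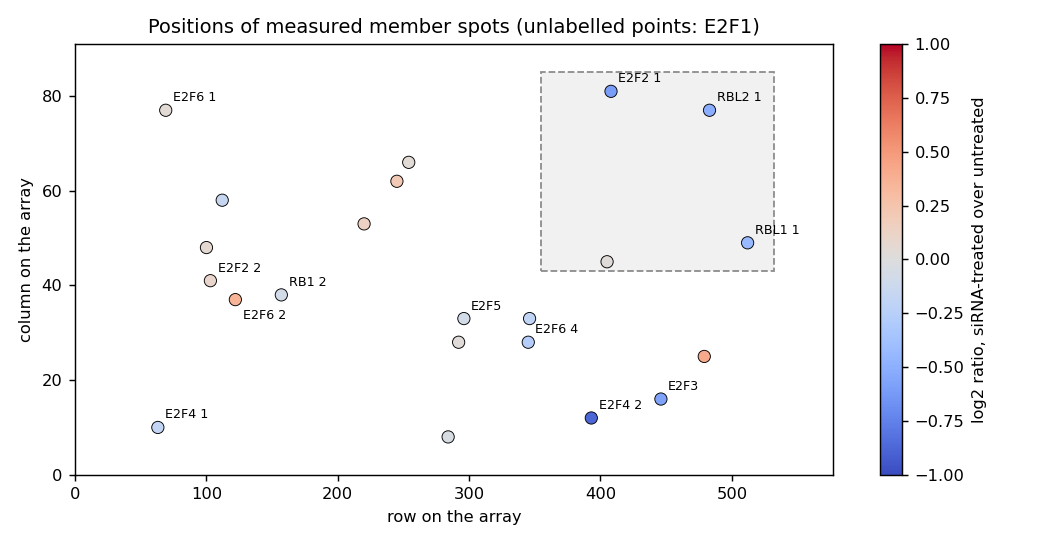
Position of the measured member spots by row and column on the array, coloured by the log2 ratio of siRNA-treated over untreated, with the number after a gene symbol giving its probe. The dashed box is the corner (rows 355 to 532, columns 43 to 85), which holds the spots of RBL1 probe 1, RBL2 probe 1 and E2F2 probe 1 and 1 of the 10 spots of E2F1.

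E2F1, the activator best known for driving cells into S phase, was the member measured most closely, since its probe (chr20:31727650-31727709, minus strand) was printed at 10 spots. All 10 were well above background on both arrays. The signals ran from 43.8 to 65.0 (median 52.0) in untreated and from 45.2 to 62.5 (median 57.2) in siRNA-treated cells, so the spots of the 2 arrays overlapped almost entirely. The log2 ratio was 0.05 with an SD of 0.18 over the 10 spots, 7 of them above 0 and 3 below, and single spots ran from -0.20 to 0.42. This ratio is a mean over the 10 spots, and it is smaller than the scanner error of that mean, 0.08. With the authors' processed values the log2 ratio of E2F1 was 0.21, and with the normexp model 0.01 without the dim spot and -0.04 with it. The authors' values hold a single number for this probe on each array, and how it was formed from the 10 spots was not checked.

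**Figure D3:**
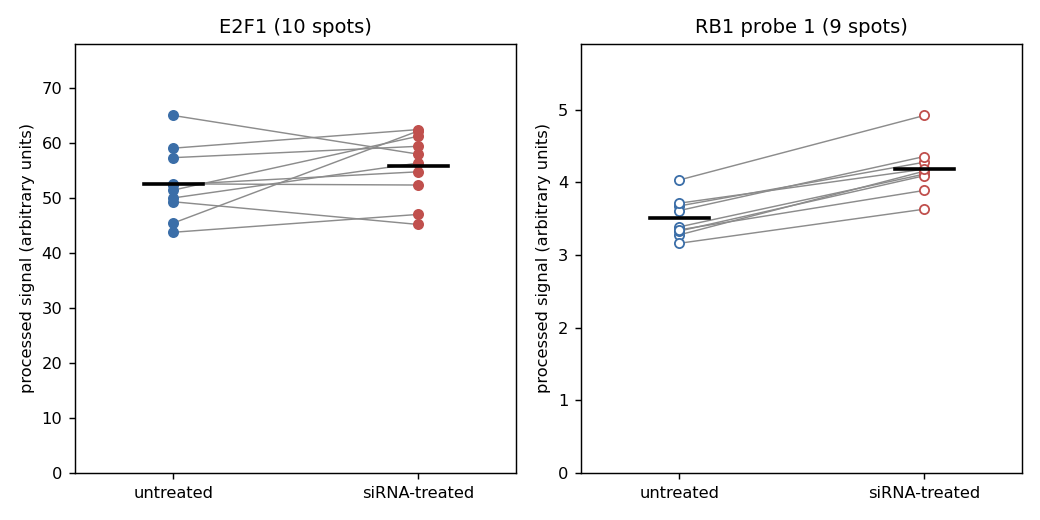
Processed signal (arbitrary units, from 0) of each spot of E2F1 (10 spots) and RB1 probe 1 (9 spots) on the untreated and siRNA-treated arrays, with lines joining the same position, black bars at the means and open symbols where a spot was not well above background. The E2F1 spots overlap between arrays, while the RB1 values lie at 4.92 units or less and are surrogates on both arrays.

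E2F2, an activator that binds RB1 as E2F1 does, had a pair of measured probes 3383 bases apart that differed. E2F2 probe 1 read 680.3 units untreated and 457.5 units after siRNA, with a log2 ratio of -0.61 and a scanner error of 0.20. It lies in the corner, where the 62 spots around it had a median of -0.26, and after subtraction the value was -0.35. With the normexp model it was -0.89, and -0.38 without the dim spot. E2F2 probe 2 (chr1:23578239-23578298, minus strand), outside the corner, read 61.8 units untreated and 67.7 units after siRNA, with a log2 ratio of 0.10 and a scanner error of 0.24. The readings are 0.70 apart on the log2 scale, so the arrays give no common direction for E2F2.

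E2F3, the activator whose gene lies on the short arm of chromosome 6, a region often gained in retinoblastoma, was read by 1 probe (chr6:20601824-20601883, plus strand). Its signal was 2636 untreated and 1809 after siRNA, which gives a log2 ratio of -0.58 with a scanner error of 0.20. The spot lies outside the corner, the 81 spots around it had a median of -0.003, and the value stayed at -0.57 after subtraction. Of all measured probes 4.91% were as low or lower, beside 4.40% for E2F2 probe 1. The size of the E2F3 ratio depended on the processing: it was -0.33 after quantile normalization and -1.13 with the normexp model. It was -0.51 with that model fitted without the dim spot and -0.53 with the authors' processed values.

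E2F4, the factor that carries pocket proteins to silent promoters, gave unequal ratios at its probes. E2F4 probe 1 read 421.5 units untreated and 379.0 units after siRNA. Its log2 ratio of -0.19, with a scanner error of 0.21, was within the scanner error of no change. E2F4 probe 2 (chr16:65790187-65790246, plus strand), 897 bases further along the chromosome, read 75.1 units untreated and 41.7 units after siRNA. Its log2 ratio of -0.88, with a scanner error of 0.26, was the lowest of all member values, and 1.38% of all measured probes were as low or lower. Neither spot lies in the corner, and subtraction of the local median left -0.11 and -0.83. The probes differ by 0.70 on the log2 scale. That gap depended on the processing: with the authors' processed values probe 1 was at -0.22 and probe 2 at -0.41, with the normexp model without the dim spot at -0.23 and -0.38, and with that spot at -0.67 and -0.36, which turns the order of the probes.

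E2F5, the other partner of RBL1 and RBL2, read 246.0 units untreated and 237.5 units after siRNA at its single probe (chr8:86313451-86313510, plus strand). The log2 ratio was -0.08 with a scanner error of 0.21, within the scanner error of no change. It was -0.47 with the normexp model and -0.05 with that model without the dim spot.

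E2F6, which represses through a Polycomb-type complex and lacks a pocket-binding end, had 4 probes within 996 bases of chromosome 2. E2F6 probe 1 (chr2:11536122-11536181, minus strand) read 487.3 units untreated and 514.5 units after siRNA, with a log2 ratio of 0.04 and a scanner error of 0.20. E2F6 probe 2 (chr2:11537059-11537118, minus strand) gave 77.5 and 101.3, a log2 ratio of 0.35 with a scanner error of 0.22. E2F6 probe 4 (chr2:11536435-11536494, minus strand) gave 120.1 and 101.9, a log2 ratio of -0.27 with a scanner error of 0.21. The brightest probe was thus nearly even between arrays, and the dimmer ones lay on either side of it, 0.62 apart. With the normexp model probes 1, 2 and 4 were at -0.48, 0.05 and -0.36, without the dim spot at 0.02, 0.25 and -0.12, and with the authors' processed values at -0.01, 0.13 and -0.16. E2F6 probe 3 (chr2:11536301-11536360, minus strand) was well above background on neither array (3.81 and 4.03), although it lies between measured probes of the same gene. RefSeq lists pseudogenes of E2F3, E2F4 and E2F6 (among them E2F6P1 to E2F6P4), and whether such copies add to a signal was not tested.

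E2F7, an atypical repressor that acts without a DP partner, had 1 probe (chr12:75917988-75918047, minus strand), in the corner. Its signals, 10.5 untreated and 18.9 after siRNA, were well above background on neither array, so E2F7 was not measured. E2F8, its closest relative, was likewise dim, at 4.16 and 3.84.

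**Figure D4:**
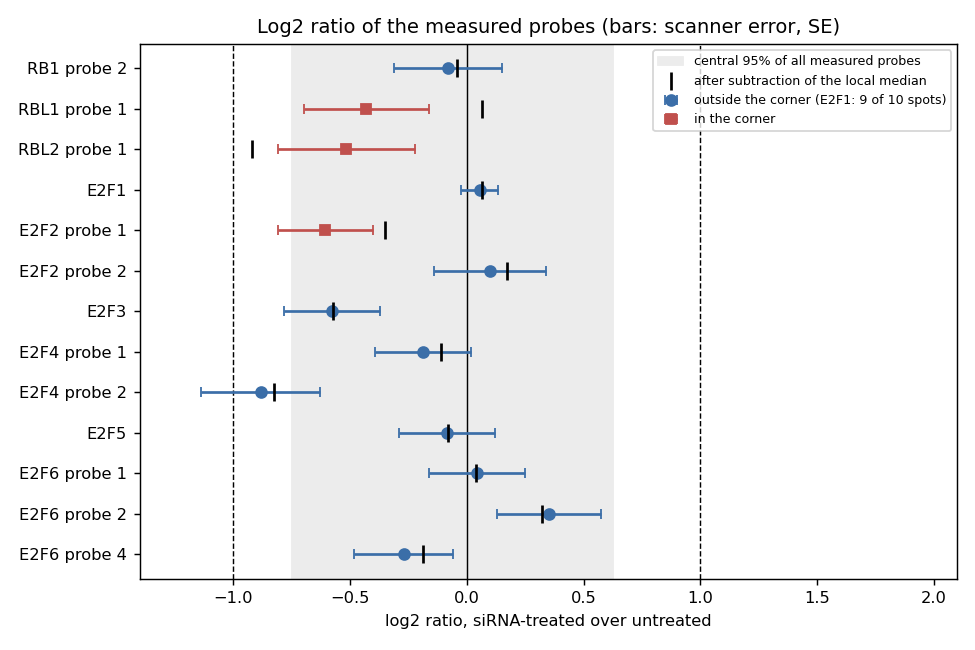
Log2 ratio (siRNA-treated over untreated) of the 13 measured probes, with the scanner error as SE, the value after subtraction of the median of the surrounding spots as a black tick, and the central 95% of all measured probes (-0.75 to 0.63) shaded. No point reaches the dashed lines at -1 and 1, and the probes of E2F2, E2F4 and E2F6 do not coincide within a gene.

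By role, the 3 pocket protein probes had a median log2 ratio of -0.43, the 4 probes of the activators E2F1, E2F2 and E2F3 one of -0.26, and the 6 probes of E2F4, E2F5 and E2F6 one of -0.14. From the lowest to the highest probe these classes spanned 0.43, 0.70 and 1.24 on the log2 scale. The activator median is near no single probe: the values were 0.05 (E2F1), -0.61 and 0.10 (E2F2) and -0.58 (E2F3). The pocket protein median is the value of RBL1 probe 1, which lies in the corner, as do RBL2 probe 1 and E2F2 probe 1. After subtraction of the local median RB1 probe 2, RBL1 probe 1 and RBL2 probe 1 were at -0.04, 0.07 and -0.92. With the authors' processed values they were at -0.02, -0.15 and -0.03. Whether the classes differ was not tested.

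Members of this pathway regulate each other: promoters of several E2F and pocket protein genes carry E2F sites of their own. The letters TTTCGCGC and TTTGGCGC, on either strand, were searched in RefSeq promoters (GRCh38.p14, 250 bases before to 50 after the start), which cover 9 of the 10 genes with 11 promoters. They were found in 3 of the 11, those of RBL1, E2F1 and E2F2, and in 1.15% of all 35116 promoters. The 60 bases before the start of these genes are shown, with matches in capitals, because the values of the genes can be read beside them.
RBL1 promoter (chr20:37095998-37096057, minus strand): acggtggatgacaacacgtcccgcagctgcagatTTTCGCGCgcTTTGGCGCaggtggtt
E2F1 promoter (chr20:33686386-33686445, minus strand): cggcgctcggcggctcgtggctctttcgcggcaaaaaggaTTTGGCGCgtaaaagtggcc
E2F2 promoter (chr1:23531234-23531293, minus strand): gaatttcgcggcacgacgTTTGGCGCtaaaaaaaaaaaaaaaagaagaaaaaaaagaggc

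The matches start 26 and 16 bases before the start of RBL1, 20 before that of E2F1 and 42 before that of E2F2. The genes with a match gave -0.43 (RBL1), 0.05 (E2F1) and -0.61 and 0.10 (E2F2). The measured genes without one gave -0.08 (RB1), -0.52 (RBL2), -0.58 (E2F3), -0.19 and -0.88 (E2F4), and 0.04, 0.35 and -0.27 (E2F6). Whether a match goes with the ratio was not tested. Only TTTCGCGC and TTTGGCGC were searched, so other forms of an E2F site were not counted. A match is a stretch of letters and not a shown binding site.

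The partners of the members were read from lists, with each gene at its brightest measured probe. Over all 22090 genes and names measured in this way the median log2 ratio was -0.02, 0.842% were higher and 0.770% lower by 1 or more, and 54.8% were below 0. Of the DP proteins, which pair with E2F factors to bind DNA, TFDP1 read 792.1 units untreated and 511.6 units after siRNA (log2 ratio -0.66) and TFDP2 gave 113.9 and 109.2 (-0.09), while TFDP3 was dim on both arrays. Both measured spots lie outside the corner. TFDP1 was measured at 1 of its 2 probes and TFDP2 at its only probe, each printed once, so neither has a second reading.

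Of the 17 cyclin-CDK regulators of pocket proteins 15 were measured, with a median of 0.05, 0 higher and 1 lower by 1 or more. The lower gene was CCND3, a D cyclin, which read 1728 units untreated and 366.8 units after siRNA (log2 ratio -2.27) at a probe in the corner, while its other measured probe gave 0.09. Of the 8 MuvB and MYB-B partners, which join RBL1 and RBL2 in the DREAM complex, 7 were measured with a median of -0.04, from LIN9 at -0.16 to MYBL1 at 0.37. Of the 9 partners of E2F6 in its repressor complex 7 were measured with a median of -0.02, from RNF2 at -0.21 to RING1 at 0.14. None of these partners passed a 2-fold change. Of the 14 corepressors bound by pocket proteins 11 were measured, 10 of them below 0, with a median of -0.37 (-0.32 outside the corner) and none past 2-fold. They ran from DNMT1, the maintenance DNA methyltransferase, at -0.64 in the corner to SMARCA4, a chromatin remodelling ATPase, at 0.47, whose other measured probes reached -0.57. The corepressor median was closer to 0 after quantile normalization (-0.14), with the authors' processed values (-0.17) and with the normexp model without the dim spot (-0.20), and further from it with that spot (-0.74). The median of the cyclin-CDK regulators turned to -0.40 with the normexp model and was 0.04 without the dim spot.

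E2F target genes are those of DNA replication, nucleotide supply and the cell cycle. Of the 38 listed, 27 were measured on both arrays, 4 were well above background on 1 array only and 7 on neither. Their median was -0.10 (-0.15 outside the corner), with 18 genes below 0 and 9 above, and 1 gene was higher and 1 lower by 1 or more. The lower gene was PCNA, the sliding clamp of replication, whose mean signal over 10 spots was 1782 untreated and 628.8 after siRNA, which gives a log2 ratio of -1.53 with an SD of 0.08 over the spots, some of them in the corner. The higher gene was RRM2, a subunit of ribonucleotide reductase, which gave 33.9 and 72.3 (log2 ratio 1.06) at 1 spot in the corner. E2F targets thus lay on both sides of 0. Over all genes the median was -0.02 and 54.8% were below 0, and whether the targets differ from them was not tested. The cause of the lower PCNA signal was not tested.

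**Figure D5:**
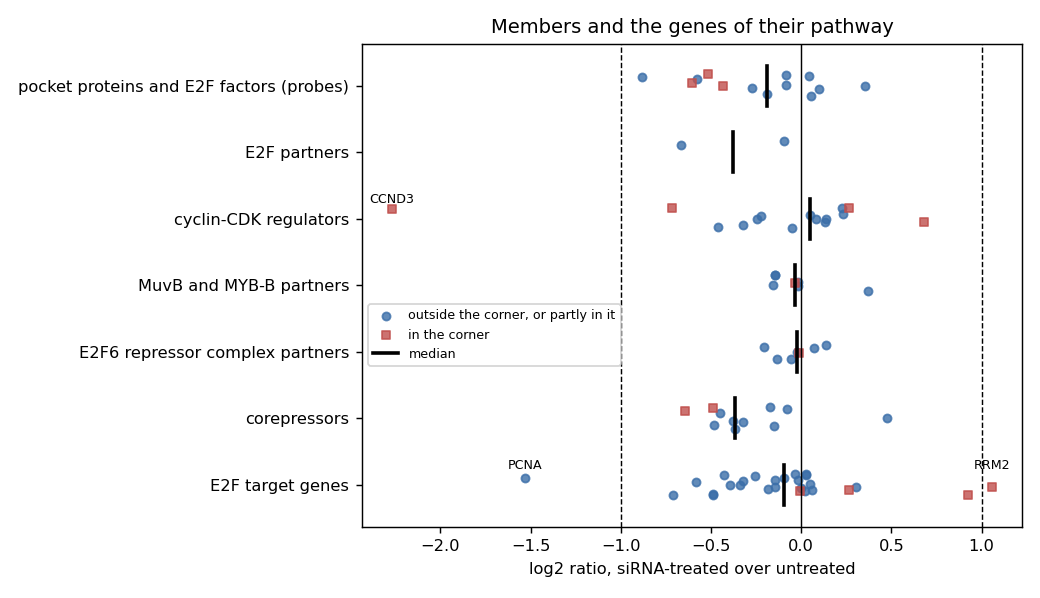
Log2 ratio (siRNA-treated over untreated) of the 13 member probes and of the measured genes of 6 pathway lists, each gene at its brightest measured probe, with squares for spots in the corner, black bars at the medians and dashed lines at -1 and 1. CCND3, PCNA and RRM2 are the points past the dashed lines, and the member median lies at -0.19.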

How the data were processed

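The files analysed here are of 1 Agilent 44K array per condition, read by the authors with Feature Extraction (version 9.5.3.1 per the file headers, another in the labels). The paper speaks of biological replicates, and no others were analysed here. The deposited files hold the resulting intensity of each spot, background-subtracted and not scaled between arrays. The authors' processed values of the series matched the raw median intensity within 1 unit at 100% of the 40736 probes printed once, and were used as an alternative. Here spots that were controls or outliers were dropped, signals were divided by the 50th percentile of the transcript spots of their array, values under 0.01 were set to 0.01, log2 was taken and the spots of a probe were averaged (Python 3.11.15, pandas 2.3.3; limma 3.58.1 for normexp with an offset of 50). Samples were grouped by their labels. With 1 array per condition no test was made, and a log2 ratio of 1 or -1 served as the threshold for a 2-fold change. The calling step itself was checked on simulated signals with known changes, which checks the code and tells nothing about variation between cultures. The local median was taken over 11 rows by 11 columns. The members and lists were chosen with earlier results of these data known, and the corner was set apart after the data had been seen.

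Every probe of the 10 members was named. From each list the text names the genes past the 2-fold threshold or, where there were none, the highest and the lowest gene, besides E2F8, TFDP1, TFDP2, PCNA and Ep-CAM. Pathway genes were matched by accession or symbol to RefSeq (GRCh38.p14), which also gave the names of pseudogenes. Of its coordinates only those of promoters were used. Exon and UTR annotation on hg17 was not used here. Alternatives were other scalings, normexp, the authors' processed values, position, other thresholds, no filter on dim probes and other rules for several probes of a gene. The normexp fit without the single spot dimmer than its local background was added after the data had been seen.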

Additional observations from a re-analysis of the deposited data

How the results depend on the processing

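No paired analysis was possible because each condition had 1 array. Over the 13 measured member probes and up to 9 settings, 90 of 114 log2 ratios stayed within the technical spread of the reported value and 24 moved by more. Many of the 90 were bound to stay. Scaling to the 75th percentile, to the median of probes well above background or not at all shifts every probe by the same small amount. Leaving out the corner left the probes printed once outside it unchanged. The count is therefore no measure of robustness. Of the 114 values, 1 passed a 2-fold change. That value was E2F3 at -1.13 with normexp, which made 1 member probe lower in place of 0. A ratio below 0.55 also called 1 probe lower (E2F4 probe 2) and a log2 ratio of -0.5 called 4. With normexp the median of the members was -0.36, of the E2F partners -0.62, of the cyclin-CDK regulators -0.40 (0.05 as reported, so the sign turned), of the MuvB and MYB-B partners -0.52, of the E2F6 partners -0.35, of the corepressors -0.74 and of the E2F targets -0.32, while the median of all measured probes was -0.20. These shifts came with 1 spot of the siRNA-treated array dimmer than its local background. With normexp fitted without it 0 member probes passed 2-fold, E2F3 was at -0.51, and the medians were -0.05 for the members, -0.27 for the E2F partners, 0.04 for the cyclin-CDK regulators, -0.07 for the MuvB and MYB-B partners, -0.05 for the E2F6 partners, -0.04 for the E2F targets and -0.02 for all measured probes. The corepressor median was -0.14 after quantile normalization, -0.20 with normexp fitted without that spot and -0.17 with the authors' processed values. Signs of single members turned at RBL1 probe 1 (0.07 after local subtraction), RBL2 probe 1 (0.04 with normexp), E2F1 (-0.04 with normexp) and E2F6 probe 1 (-0.48 with normexp, -0.01 with the authors' values). Other causes were not tested. Over all measured probes, 214 were higher and 216 lower by 2-fold as reported, 26 and 1048 with normexp, 93 and 70 with the later normexp fit, 67 and 77 with the authors' values, 60 and 144 without the corner, 787 and 401 at ratios above 1.5 or below 0.55, 1057 and 1808 at a log2 ratio of 0.5, and 1049 and 1016 with dim probes kept. Signals near background limit RB1 probe 1, RBL1 probe 2, RBL2 probe 2, E2F6 probe 3 and E2F7, for which the arrays cannot show a change.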

Other observations

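Besides the member probes, 1 probe outside the member symbols was described as part of a member, a tentative consensus sequence annotated as similar to E2F2, and it was well above background on neither array (8.74 untreated, 6.69 siRNA-treated). RB1CC1, an autophagy gene whose name refers to RB1, read 39.6 units untreated and 28.8 units after siRNA, a log2 ratio of -0.49 at a spot in the corner. Both were found by a search of the probe descriptions after the values of the members had been seen.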
